A study of Homo sapiens with 6 samples.

Results

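The genes described are a chosen set of MHC class II genes with counts in MM.1S cells, together with CD74, the invariant chain that escorts class II molecules, and CIITA, the transactivator of the whole set. MM.1S is an established human multiple myeloma cell line, a tumour of antibody-secreting plasma cells. The cells carried a lentiviral short hairpin RNA (shRNA), selected with puromycin, either against KDM6B, a histone demethylase that removes the repressive trimethyl mark laid by Polycomb, or against luciferase as the control. Each arm, shKDM6B and shLuc, had 3 RNA-seq libraries of total RNA, so both arms had been infected and drug-selected, and the labels name 1 hairpin target per arm and no rescue. The genes were found by symbol in the tables of raw counts: 10 of the 56637 listed symbols, HLA-DRA, HLA-DRB1, HLA-DRB5, HLA-DPA1, HLA-DPB1, HLA-DMA, HLA-DMB, HLA-DOB, CD74 and CIITA. All 10 passed the filter on low counts, which left 13839 genes. They were chosen by their behaviour in this very contrast, so their fold changes are given as a description, without p-values.

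Class II molecules carry peptides from endocytosed proteins to the cell surface, where CD4 T cells read them. The classical DR and DP molecules each pair an alpha chain (HLA-DRA, HLA-DPA1) with a beta chain (HLA-DRB1, HLA-DRB5, HLA-DPB1). CD74 fills the groove until cathepsins trim it, HLA-DM (HLA-DMA with HLA-DMB) exchanges its last fragment for peptide, and HLA-DO, of which HLA-DOB is the beta chain, restrains HLA-DM. Their promoters share an X box, bound by RFX and CREB, and a Y box, bound by NF-Y, and CIITA is recruited to the bound factors. Plasma cells are known to switch the set off as PRDM1 silences CIITA.

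The shared promoter elements are shown for the genes that a promoter table covers, because they are the DNA feature that links these genes outside the RNA data. RefSeq windows (GRCh38.p14, 250 bases before to 50 after each start) were at hand for 8 of the 10 genes, with 9 promoters in all. They are reference sequence, not that of MM.1S. HLA-DRA and CIITA had no entry. Capitals mark CTGATGAT, the core letters of the X box in these genes, and ATTGG or its reverse complement CCAAT, the Y box; the letters were picked after the promoters of these genes had been read. All 70-base stretches are written 5′ to 3′ on the strand of the gene, which is the minus strand except for HLA-DPB1.
HLA-DRB1, chr6:32589868-32589937: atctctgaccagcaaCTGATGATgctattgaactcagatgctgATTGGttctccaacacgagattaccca
HLA-DRB5, chr6:32530351-32530420: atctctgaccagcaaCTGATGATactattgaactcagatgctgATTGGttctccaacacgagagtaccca
HLA-DMA, chr6:32953151-32953220: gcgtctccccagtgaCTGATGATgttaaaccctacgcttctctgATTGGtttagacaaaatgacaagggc
HLA-DMB, chr6:32941057-32941126: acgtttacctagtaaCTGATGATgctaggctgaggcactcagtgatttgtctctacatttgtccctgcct
HLA-DOB, chr6:32817073-32817142: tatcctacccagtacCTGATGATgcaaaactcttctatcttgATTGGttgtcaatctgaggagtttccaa
HLA-DPB1, chr6:33075876-33075945: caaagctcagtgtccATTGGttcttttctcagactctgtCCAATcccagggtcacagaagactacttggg
CD74, chr5:150412911-150412980: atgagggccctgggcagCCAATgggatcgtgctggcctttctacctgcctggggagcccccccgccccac

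In HLA-DRB1, HLA-DRB5, HLA-DMA and HLA-DOB the X letters were followed by the Y letters, with starts 28, 28, 29 and 27 bases apart. HLA-DMB had the X letters at -83 from the start and ATTGG or its reverse complement at -22, which did not make such a pair. HLA-DPB1 and CD74 held the Y letters alone, and neither of the promoters of HLA-DPA1 held either motif, which says only that these exact letters are not in those windows. Searched on both strands, CTGATGAT was in 239 of 35116 promoters (0.681%) and ATTGG in 12155 (34.6%). The X letters followed by the Y letters within 40 bases on the strand of the gene were found in the promoters of 7 genes (0.0199% of promoters): the 4 above, THBS3 and the unnamed loci LOC105369331 and LOC105374593.

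Library totals ran from 7338393 to 9848351 counts. KDM6B itself fell from 53.8 ± 4.9 to 32.6 ± 2.4 CPM (counts in relation to depth, scaled by TMM, SD, n = 3; log2 fold change -0.71, standard error (SE) 0.073, edgeR quasi-likelihood test, adjusted p = 7.72e-08), with no overlap between arms. Plasma cell markers (11 genes) summed to 3218 to 3528 CPM in shLuc and 3054 to 3431 in shKDM6B. Of the 11, 2 rose and 3 fell past an adjusted p of 0.05 by edgeR, against 20.1% and 18.9% of all tested genes. Of 8 mature B cell markers, 3 were at 0 and the sum, 179.3 to 196.9 CPM in shLuc and 142 to 162.6 in shKDM6B, was nearly all CR2 and BACH2. The 11 markers of monocytes and dendritic cells, the cells richest in class II, summed to 1.65 to 2.82 and 1.66 to 3.11 CPM, with 5 at 0. The 7 T and NK cell markers summed to 8.24 to 12.1 and 5.74 to 6.97 CPM, with 2 at 0 and mostly CD3E, which fell (adjusted p = 0.00727), though not past the threshold without the 3 libraries with keratin counts or by the DESeq2 Wald test. Of 10 epithelial markers 4 were tested, and KRT5, KRT14 and KRT19 rose, with arms that overlapped, against 20.1% of all tested genes. EPCAM did not pass or follow the keratins, with 11, 12 and 20 counts in shLuc and 7, 5 and 13 in shKDM6B, in replicate order. The summed epithelial markers, mainly keratins, were highest in shLuc replicate 1 and shKDM6B replicates 1 and 2. They reached 12.4 and 45.8 CPM at the highest in shLuc and shKDM6B. Those 3 libraries are the ones with keratin counts that a refit left out, though the others held a few such counts too. That refit leaves 1 shKDM6B library, so a call gained or lost there may reflect the lost replication. The labels do not say that the replicates were separate cultures, so the p-values rest on differences between libraries that could be technical. In bulk RNA, fewer cells that express a gene and less RNA per cell cannot be told apart.

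The classical chains and both chains of HLA-DM stood at about 31 to 54% of their control level in shKDM6B cells, whereas CD74 and HLA-DOB stood at 95.2% and 92.7% and CIITA at 85.5%. In all, 8 of the 10 genes were lower past the threshold (adjusted p under 0.05 by edgeR) and 0 were higher, against 18.9% of all tested genes lower and 20.1% higher. The same 8 had all 3 shKDM6B values below all 3 shLuc values, against 23.9% of tested genes. Nothing is read from these counts, since the contrast itself selected the genes. Their median log2 fold change was -1.20, and that of all tested genes -0.01.

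**Figure D1:**
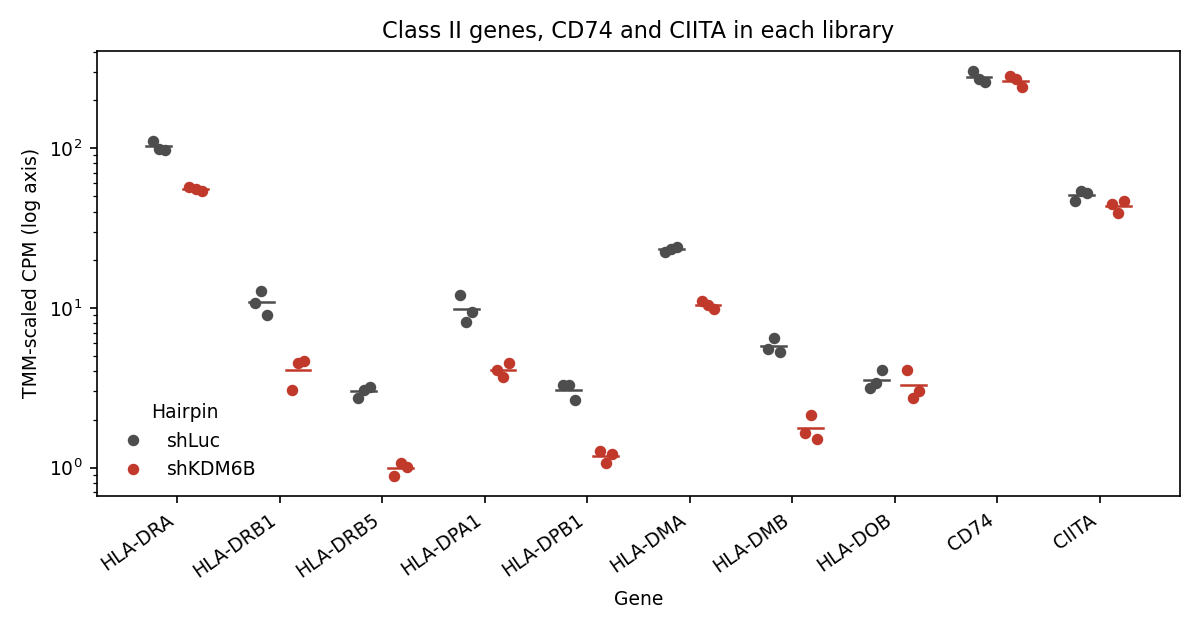
TMM-scaled CPM on a log axis for each of the 10 genes, with 1 point per library (3 shLuc in grey, 3 shKDM6B in red) and a line at the mean of each arm. The arms are apart for the DR, DP and DM chains, overlap for HLA-DOB and CD74, and nearly touch for CIITA.

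Among the classical chains, HLA-DRA, the alpha chain of every DR molecule, was the most abundant. In the 3 control libraries it was counted 802, 877 and 885 times, and in the 3 shKDM6B libraries 445, 461 and 534 times, in the order of their replicate numbers, which holds for every triplet of values that follows. After scaling these were 110, 99.0 and 97.5 CPM against 56.6, 55.1 and 53.9 CPM, so that the highest shKDM6B library lay far below the lowest control. The mean went from 102.2 ± 6.9 to 55.2 ± 1.4 CPM, a log2 fold change of -0.89 (SE 0.054), and 2.77% of tested genes had one as low or lower.

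HLA-DRB1, the main DR beta chain, had 78, 112 and 82 counts in shLuc and 24, 38 and 46 in shKDM6B. The mean went from 10.8 ± 1.8 to 4.08 ± 0.89 CPM (log2 fold change -1.38, SE 0.18), with no overlap. HLA-DRB5, a further DR beta gene present on some haplotypes, had 20, 27 and 29 counts against 7, 9 and 10, or 3.00 ± 0.23 and 0.992 ± 0.093 CPM (log2 fold change -1.58, SE 0.28), again without overlap. The DRB genes are near-identical copies, and how the counting treated reads that fit several places is not given in the sources used here, so the split between them is uncertain. Their sum went from 13.8 ± 1.8 to 5.07 ± 0.98 CPM, 36.8% of the control, while the ratio of HLA-DRB1 to HLA-DRB5 overlapped between arms (283 to 415 HLA-DRB1 counts per 100 of HLA-DRB5 in shLuc and 343 to 460 in shKDM6B). HLA-DRB6, a DR beta pseudogene that was not among the 10, had 12, 16 and 18 counts in shLuc and 4, 1 and 1 in shKDM6B and fell as well (log2 fold change -2.91, SE 0.47, adjusted p = 3.13e-05), on 46 and 6 counts in all and with the same doubt over shared reads.

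Of the DP chains, HLA-DPA1, the alpha chain, had 88, 72 and 85 counts in shLuc and 32, 31 and 45 in shKDM6B, and went from 9.86 ± 2.02 to 4.11 ± 0.42 CPM (log2 fold change -1.23, SE 0.18). HLA-DPB1, its beta partner, had 24, 29 and 24 counts against 10, 9 and 12, and went from 3.07 ± 0.37 to 1.19 ± 0.10 CPM (log2 fold change -1.35, SE 0.27). Neither overlapped between arms. These genes lie head to head and share 31 exonic bases in GENCODE v29. The library kit, as far as its name shows, does not mark strand, so reads from that stretch cannot be assigned by strand.

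HLA-DRA took 79.3% of the summed classical counts in shLuc and 84.1% in shKDM6B, so the sum mostly follows it. The 5 classical chains together went from 129.0 ± 8.9 to 65.6 ± 0.3 CPM, 50.9% of the control. The DR beta and DP chains were lower than HLA-DRA within the libraries too: HLA-DRB1 plus HLA-DRB5 gave 12.2, 15.8 and 12.5 counts per 100 of HLA-DRA in shLuc and 6.97, 10.2 and 10.5 in shKDM6B. For the DP chains the same ratio was 14.0, 11.5 and 12.3 in shLuc and 9.44, 8.68 and 10.7 in shKDM6B. Neither ratio overlapped between arms.

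The HLA-DM chains, which edit the peptide in the class II groove, were lower as well. HLA-DMA had 163, 206 and 219 counts in shLuc and 87, 87 and 98 in shKDM6B, that is 23.3 ± 0.9 and 10.5 ± 0.6 CPM (log2 fold change -1.16, SE 0.099). HLA-DMB had 40, 57 and 48 against 13, 18 and 15, or 5.74 ± 0.61 and 1.77 ± 0.33 CPM (log2 fold change -1.70, SE 0.22), and 0.484% of tested genes had a log2 fold change as low or lower. Neither gene overlapped between arms, and HLA-DMB was also lower relative to its partner: HLA-DMA gave 408, 361 and 456 counts per 100 of HLA-DMB in shLuc and 669, 483 and 653 in shKDM6B. In GENCODE v29 both share exonic bases with a readthrough gene on the same strand, 174 in HLA-DMA and 438 in HLA-DMB.

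HLA-DOB, the beta chain of the HLA-DM inhibitor, overlapped between arms. It had 23, 30 and 37 counts in shLuc and 32, 23 and 30 in shKDM6B. Its mean was 3.54 ± 0.48 CPM in shLuc and 3.28 ± 0.70 in shKDM6B (log2 fold change -0.13, SE 0.22). At these counts, a moderate change could be missed. HLA-DOA, its alpha partner, was at 0 in all libraries. The HLA-DM sum was 883, 877 and 722 counts per 100 of HLA-DOB in shLuc and 312.5, 457 and 377 in shKDM6B, without overlap. The HLA-DOB promoter carries the X and Y letters in the same order and nearly the same spacing as HLA-DRB1 and HLA-DMA. It shares 599 exonic bases with another coding gene on its strand in GENCODE v29.

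CD74 was the most abundant of the 10 and its arms overlapped. It had 2204, 2379 and 2339 counts in shLuc and 2215, 2241 and 2372 in shKDM6B, that is 302.6, 268.7 and 257.7 CPM against 281.9, 267.8 and 239.4 CPM. The means were 276 ± 23 and 263 ± 22 CPM (log2 fold change -0.07, SE 0.060). With TMM factors taken from genes with a mean under 100 counts, the CD74 value turned to 0.02, and without the 3 libraries with keratin counts it was -0.14 and past the threshold.

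The CD74 counts also moved little with depth. From replicate 1 to replicate 3 the library total grew 1.226-fold in shLuc and 1.238-fold in shKDM6B, while the CD74 count grew 1.061-fold and 1.071-fold. CD74 had 2.01 counts per base of transcript, and for the 535 tested genes above 1 count per base the median growth was 1.139-fold and 1.145-fold. Of these dense genes 23.2% passed the threshold and the median size of the log2 fold change was 0.062. Of the 3423 genes with 0.3 to 1 counts per base 41.3% passed, with a median size of 0.1. From 0.1 to 0.3 counts per base (3531 genes) 48.9% passed, with a median size of 0.149. From 0.03 to 0.1 (2361 genes) 41.9% passed, with a median size of 0.213. Of the 2211 genes under 0.03 counts per base 32.4% passed, with a median size of 0.349. HLA-DRA, at 0.521 counts per base, was the next densest of the 10, HLA-DMA had 0.128, CIITA 0.0869, and the other 6 had 0.0115 to 0.0515. The part of read density in the difference between CD74 and the classical chains was not tested.

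**Figure D2:**
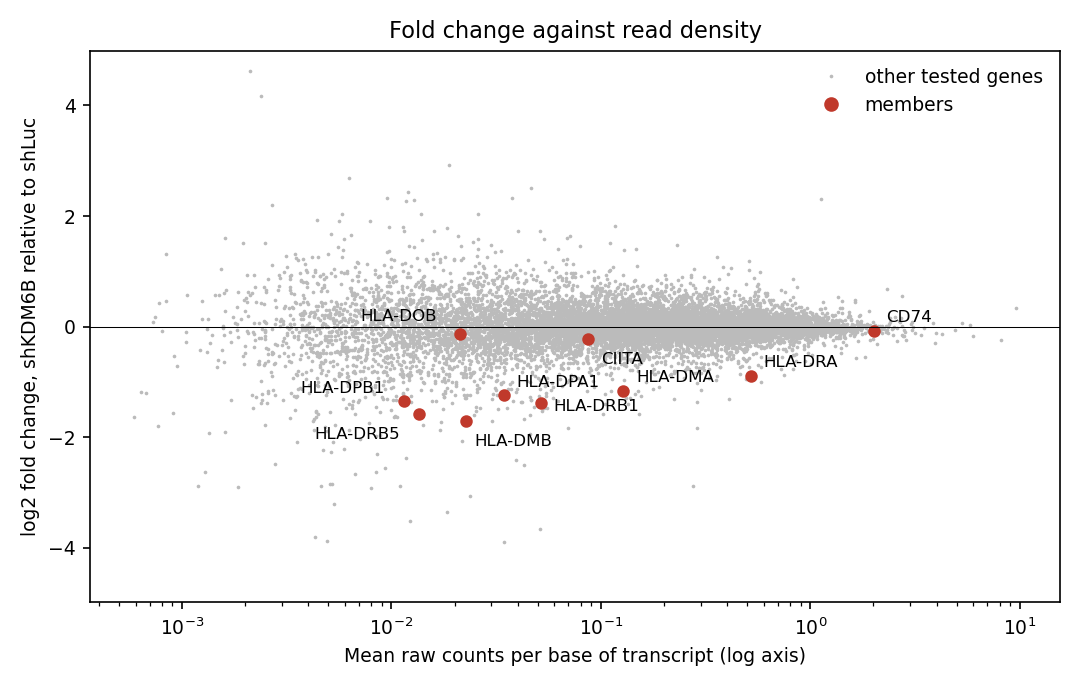
log2 fold change (shKDM6B relative to shLuc) against mean raw counts per base of transcript (log axis), with the 10 genes in red and the other tested genes in grey, for the 12061 tested genes with a transcript length. Fold changes narrow as density rises, CD74 (2.01 counts per base) lies in the narrow end, and CIITA and HLA-DOB lie near 0 at densities where the other class II genes lie near or below -1.

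CIITA, the transactivator, had 340, 476 and 472 counts in shLuc and 352, 327 and 460 in shKDM6B. Scaled, these were 46.7, 53.8 and 52.0 CPM against 44.8, 39.1 and 46.4 CPM, so the arms lay apart by a narrow margin. The mean went from 50.8 ± 3.7 to 43.4 ± 3.9 CPM (log2 fold change -0.23, SE 0.069), and 20% of tested genes had a log2 fold change as low or lower. CIITA did not pass the threshold without shLuc replicate 2 (-0.19), without shKDM6B replicate 2 (-0.16), without the 3 libraries with keratin counts (-0.19), by the DESeq2 Wald test (-0.23) or with TMM factors from genes under 100 counts (-0.14). In GENCODE v29 it shares 2378 exonic bases with AC133065.3 on its own strand. It shares a further 830 with DEXI on the other strand, so reads there cannot be assigned by strand.

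Ratios of raw counts within a library need no scaling between libraries. The classical chains gave 45.9, 47.0 and 47.2 counts per 100 of CD74 in shLuc and 23.4, 24.5 and 27.3 in shKDM6B. Per 100 counts of CIITA they gave 298, 235 and 234 in shLuc and 147, 168 and 141 in shKDM6B. HLA-DM was lower on both scales too, with 9.21, 11.1 and 11.4 counts per 100 of CD74 against 4.51, 4.69 and 4.76, and 59.7, 55.3 and 56.6 per 100 of CIITA against 28.4, 32.1 and 24.6. None of these 4 ratios overlapped between arms. CD74 per 100 of CIITA did, at 648, 500 and 496 in shLuc and 629, 685 and 516 in shKDM6B.

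Against each other, the classical chains and HLA-DM differed less. The classical sum was 499, 425 and 414 counts per 100 of HLA-DM in shLuc and 518, 522 and 573 in shKDM6B, that is 446 ± 46 and 537 ± 30. The shKDM6B values were the higher ones and the arms lay apart, so HLA-DM was lower relative to this sum. That does not hold for every classical chain. HLA-DM stood at 42.2% of its control level and HLA-DRA at 54.0%, but the DR beta sum stood at 36.8% and the DP sum at 40.9%. The classical sum is mostly HLA-DRA, which is also denser in reads than HLA-DM, and the part of density in this ratio was not tested.

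Per length, in CPM per kilobase of transcript, the order in control cells was CD74 (242.8 ± 20.6), HLA-DRA (79.9 ± 5.4), HLA-DMA (20.7 ± 0.8), CIITA (10.9 ± 0.8), HLA-DRB1 (8.79 ± 1.47), HLA-DPA1 (5.79 ± 1.19), HLA-DMB (4.11 ± 0.44), HLA-DOB (2.58 ± 0.35), HLA-DRB5 (2.38 ± 0.18) and HLA-DPB1 (1.97 ± 0.24). The neighbours CIITA and HLA-DRB1, and HLA-DOB and HLA-DRB5, overlapped in their ranges. In shKDM6B cells CD74 (231.1) and HLA-DRA (43.1) still led, CIITA (9.33) drew level with HLA-DMA (9.31), and HLA-DOB (2.39) stood above HLA-DMB (1.27), where in control cells it stood below. The DR alpha chain thus exceeded the counted DR beta chains in both arms on this scale. DRB reads that match the reference poorly or in several places may go uncounted, so the true difference is uncertain.

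The other class II genes had few or no counts. Of 12 other class II genes, 9 had 0 counts in all 6 libraries: HLA-DRB3, HLA-DRB4, HLA-DRB9, HLA-DQA1, HLA-DQA2, HLA-DPA2, HLA-DPA3, HLA-DPB2 and HLA-DOA. A count of 0 allows up to 3 counts, or 0.303 to 0.412 CPM depending on the library, for counting error only. HLA-DQB1, the DQ beta chain, had 4, 7 and 10 counts in shLuc and 2, 4 and 3 in shKDM6B, too few for the test, and HLA-DQB2 had 3 and 1 in all. HLA genes vary between haplotypes, and reads that match the reference poorly or in several places may go uncounted, so a 0 says only that no read was assigned.

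The factors that bind the class II promoter were tested as a list of 14 with the cofactors of CIITA, of which 4 rose, 2 fell and 8 did not pass. Over all tested genes 20.1% rose and 18.9% fell, the background for this and the following lists, so these counts lie near it. None of the RFX subunits, which bind the X box, passed: RFX5 was 259 ± 5 and 249 ± 10 CPM (log2 fold change -0.06), RFXANK -0.12 and RFXAP 0.02 on the log2 scale, with adjusted p of 0.351, 0.0625 and 0.916. The signs of RFX5, RFXAP and the NF-Y subunit NFYB (-0.07) turned under another scaling, and RFXANK passed, lower, with upper-quartile scaling and without shLuc replicate 3, but was at -0.03 with TMM factors from genes under 100 counts. Of the NF-Y subunits, which bind the Y box, NFYC rose from 62.6 ± 2.3 to 76.7 ± 1.2 CPM (0.29, SE 0.050, adjusted p = 5.65e-05) and NFYA rose slightly (0.14, adjusted p = 0.0225), a call lost without shLuc replicate 2, shKDM6B replicate 2 or shKDM6B replicate 3 and by DESeq2. CARM1, an arginine methyltransferase (0.45, SE 0.042, adjusted p = 1.68e-08), and NCOA1, a histone acetyltransferase (0.39, SE 0.059, adjusted p = 1.6e-05), rose, and both are coactivators used by CIITA. CREB1, which binds beside RFX, fell (-0.20, adjusted p = 0.00208), as did the acetyltransferase EP300 (-0.15, adjusted p = 0.00949), but neither passed with TMM factors from genes under 100 counts (adjusted p = 0.154 and 0.567). EP300 was also lost without shLuc replicate 2 or shKDM6B replicate 1, and CREB1 without the 3 libraries with keratin counts and by DESeq2.

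Of 19 regulators of CIITA, 18 were tested: 4 rose, 4 fell and 10 did not pass, again near the 20.1% and 18.9% of all tested genes. PRDM1, the repressor of CIITA in plasma cells, went from 387 ± 17 to 429 ± 18 CPM (log2 fold change 0.15, adjusted p = 0.0173), and it did not pass when shLuc replicate 2 or 3 or shKDM6B replicate 1 or 2 was left out, nor without the 3 libraries with keratin counts. PAX5, a B cell activator of CIITA, had at most 2 counts in any library. Of the interferon-gamma route to CIITA, IRF1 rose (0.19, SE 0.043, adjusted p = 0.0011), the receptor chain IFNGR2 rose (0.18, adjusted p = 0.00864), and the chain IFNGR1 fell (-0.26, adjusted p = 0.00713). SPI1, the myeloid and B cell factor PU.1, fell from 25.0 ± 3.5 to 18.5 ± 1.5 CPM (-0.44, SE 0.10, adjusted p = 0.00148), and its partner IRF8 fell (-0.29, adjusted p = 0.00915). IFNGR1 did not pass with TMM factors from genes under 100 counts (adjusted p = 0.0625), nor did IFNGR2 and IRF8 without shLuc replicate 3. DESeq2 called none of IFNGR1, IFNGR2 and IRF8, and IFNGR2 was also lost without the libraries with keratin counts. BACH2, a B cell repressor of PRDM1 listed among the B cell markers, fell from 92.9 ± 5.6 to 62.4 ± 4.0 CPM (-0.57, adjusted p = 2.65e-08).

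Of 18 tested genes that trim CD74 or act in the processing and traffic of class II molecules, 6 fell, 1 rose and 11 did not pass, against 18.9% and 20.1% of all tested genes; the difference from that background was not tested. CTSS, cathepsin S, which makes the last cut in the invariant chain, had 589, 764 and 764 counts in shLuc and 475, 480 and 581 in shKDM6B, and fell from 83.8 ± 2.7 to 58.8 ± 1.6 CPM (log2 fold change -0.51, SE 0.050, adjusted p = 2.71e-08). CTSZ, cathepsin Z, fell (-0.79, SE 0.055, adjusted p = 2e-10), as did the lysosomal membrane protein LAMP1 (-0.41, adjusted p = 8.5e-07) and the endopeptidase LGMN (-0.33, adjusted p = 1.17e-05). CD83, which shields surface class II from ubiquitination, fell on few counts, from 17, 21 and 19 to 6, 4 and 7 (-1.77, SE 0.33, adjusted p = 0.000157). AP2A1, an endocytic adaptor, rose (0.28, adjusted p = 1.57e-05). The ubiquitin ligases of class II, MARCH1 (-0.17) and MARCH8 (-0.07), and cathepsin D, CTSD (-0.03), did not pass.

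CD74 is also the receptor of the cytokine MIF. Of 6 genes of that pathway, 3 had enough counts to test. The co-receptor CXCR4 rose (0.20, SE 0.045, adjusted p = 0.00105), and MIF (0.35, adjusted p = 0.178) and CD44 (-0.08, adjusted p = 0.213) did not pass. Without the libraries with keratin counts, CD44 was at -0.13. CD44 had 1.9 counts per base, a density close to that of CD74.

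Class I presentation, the parallel route for peptides made inside the cell, was measured in 16 tested genes, of which 2 rose, 3 fell and 11 did not pass, against 20.1% and 18.9% of all tested genes. HLA-B (-0.10), HLA-C (-0.11), B2M (-0.05) and NLRC5 (0.05), the class I counterpart of CIITA, did not pass. HLA-C passed, lower, without shLuc replicate 3. HLA-B, HLA-C and B2M had 0.938 to 1.5 counts per base, where fold changes were narrow. The peptide-trimming enzymes ERAP1 (-0.45, SE 0.041, adjusted p = 1.22e-08) and ERAP2 (-0.32, adjusted p = 6.66e-06) fell, and the peptide transporter chain TAP2 rose (0.20, adjusted p = 0.000796). HLA-E fell (-0.19, adjusted p = 0.00359), a call lost with TMM factors from genes under 100 counts (adjusted p = 0.345).

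Of 12 tested genes in or beside the class II region of chromosome 6, 3 rose, 2 fell and 7 did not pass, near the 20.1% and 18.9% of all tested genes. TAP2 and TAP1 (0.13, adjusted p = 0.0225), which lie between the HLA-DOB and HLA-DM genes, rose, as did HSD17B8 (0.28, adjusted p = 0.000139). RING1 (-0.21, adjusted p = 0.00184) and NOTCH4 (-0.60, adjusted p = 0.0245) fell, and BRD2, next to HLA-DMA, did not pass (-0.04, adjusted p = 0.553). TAP1 was lost without shLuc replicate 3, shKDM6B replicate 1 or shKDM6B replicate 2, NOTCH4 when the third library of either arm or the second of shLuc was left out, and RING1 with TMM factors from genes under 100 counts (adjusted p = 0.126). DESeq2 called neither TAP1 nor NOTCH4, and TAP1 and RING1 were lost without the libraries with keratin counts. BTNL2 and C6orf10 had 0 counts. Over the 6 lists other than the MIF genes, 75 of 90 genes were tested, 12 rose and 18 fell, against 20.1% and 18.9% of all tested genes. The genes of these 6 lists are called pathway genes below, though they include class I genes and neighbours on chromosome 6.

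**Figure D3:**
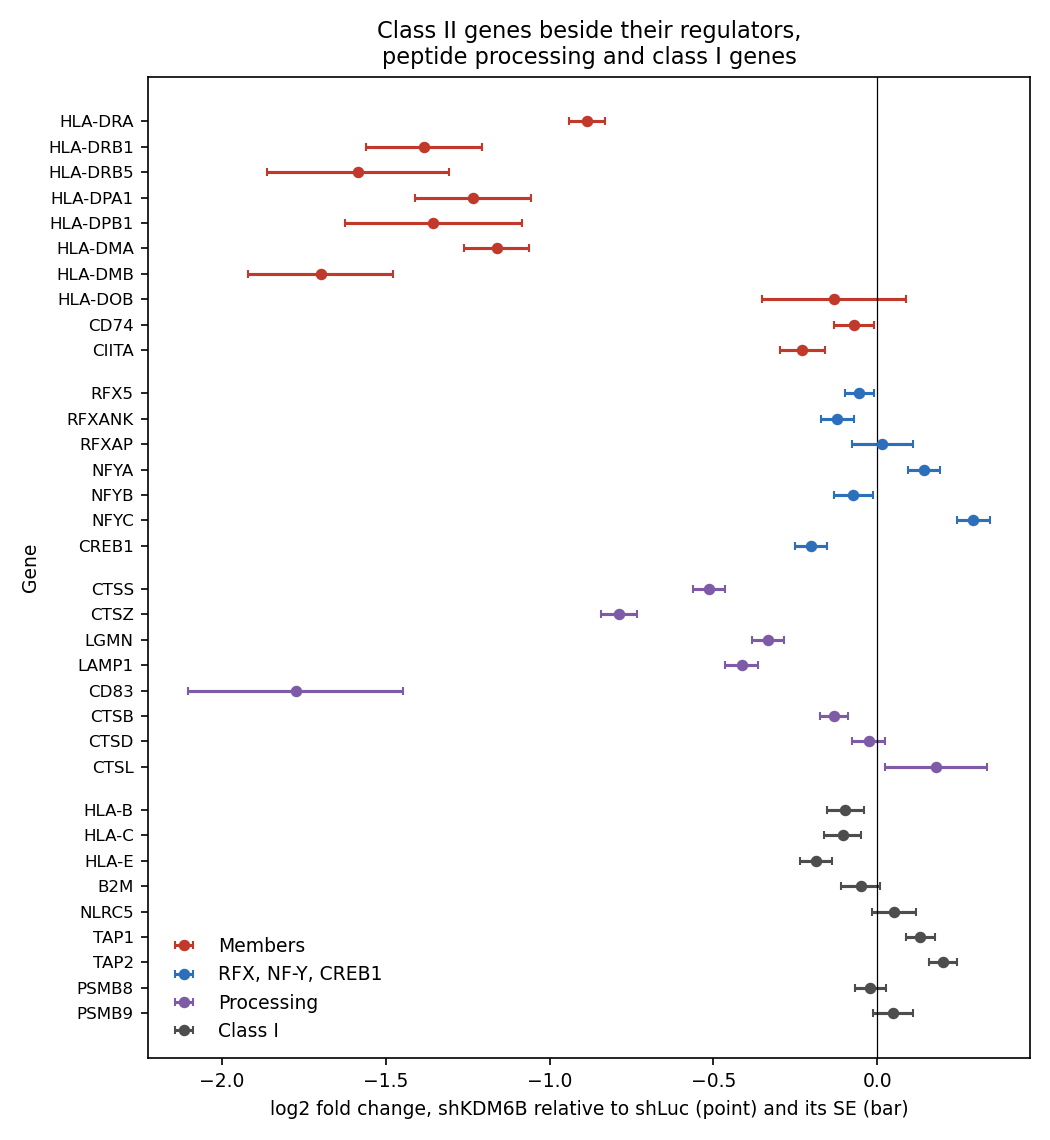
log2 fold change, shKDM6B relative to shLuc, as a point with its SE as a bar, for the 10 genes and for chosen regulators, processing and class I genes. The DR, DP and DM chains lie from -1.70 to -0.89, apart from CIITA (-0.23), the RFX subunits (-0.12 to 0.02) and the class I chains HLA-B and HLA-C (-0.10 and -0.11), with CD83 at -1.77.

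The genes most like the classical chains over the 6 libraries, among 11212 with at least 5 CPM, were the septin SEPT2 (Pearson r 0.9994), the spindle midzone protein PRC1 (0.9991), the dynein light chain DYNLL2 (0.999), the phosphodiesterase PDE4D (0.9988) and RQCD1 (0.9981), a subunit of the CCR4-NOT deadenylase. The correlation is of log2 CPM with the log2 of the summed classical CPM, the points share their libraries and arms, and 1438 genes had r above 0.9. Their log2 fold changes were -0.74, -0.65, -0.35, -1.46 and -0.44, so PDE4D, from 12.6 ± 1.0 to 4.55 ± 0.09 CPM, was closest in size to the DP and DR beta chains.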

How the data were processed

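RNA-seq of 6 MM.1S libraries, 3 shLuc and 3 shKDM6B, was analysed from the raw counts per gene that the authors deposited. The submitters' processing notes name the aligner STAR, the counter featureCounts, DESeq and the build GRCh37 (hg19). Not given in the sources used here were their versions, the annotation, the strand setting and how duplicate and multi-mapping reads were handled. The authors also deposited a table of normalized values (a linear signal), which matched the counts divided by a factor per library. A gene name spoilt into a date cost 1 line per library. Counts were filtered (filterByExpr), scaled by TMM and tested by the quasi-likelihood test of edgeR 4.0.16 (R 4.3.3), with the arm as the single term and Benjamini-Hochberg adjustment over 13839 genes; a gene passed at an adjusted p under 0.05. Adjusted p-values are those of edgeR except where DESeq2 or limma is named. CPM are TMM-scaled, with the SD over 3 libraries. Transcript lengths and exonic overlaps came from GENCODE v29 (GRCh38), with lengths for 12061 tested genes (87.2%). The script was tested on simulated data.

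The 10 genes and all lists were chosen with earlier results of these data known. Named besides the 10 were KDM6B, up to 4 genes per list with the smallest p among those past the threshold, genes needed to account for a list, and the 5 genes most like the classical chains. Replicate pairs within an arm differed slightly beyond counting noise (chi-square per degree of freedom 1.065 to 1.301, largest chi-square p 0.0213). This was checked on genes under 0.03 counts per base with at least 20 counts in the pair. Each library counted as 1 sample, but so small an excess cannot show that the libraries were separate cultures. Alternatives were other scalings, filters, DESeq2 1.42.0, limma 3.58.1 (on voom weights, and as limma-trend on log2 of the deposited normalized values plus 1), a replicate block, libraries left out and an adjusted p of 0.01. Some genes of the lists are not reported here by name.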

Additional observations from a re-analysis of the deposited data

How the results depend on the processing

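The classical and HLA-DM chains passed the threshold, lower, under all 16 refits, whereas CIITA did not under 5 of them. Lower calls among the 10 genes were 7 or 8, and higher ones 0. Over all tested genes the lower share ran from 9.09% (no filter on low counts) to 22.1% (replicate block). Nothing is read from the calls of the 10 genes here either, since the contrast itself selected them and the refits use the same libraries. Over the refits the log2 fold change ran from -0.92 to -0.80 for HLA-DRA, -1.51 to -1.22 for HLA-DRB1, -1.64 to -1.49 for HLA-DRB5, -1.36 to -0.94 for HLA-DPA1, -1.46 to -1.27 for HLA-DPB1, -1.26 to -1.07 for HLA-DMA, -1.94 to -1.58 for HLA-DMB, -0.30 to -0.02 for HLA-DOB and -0.28 to -0.14 for CIITA. CD74 passed only without the 3 libraries with keratin counts (-0.14), a fit that leaves 1 shKDM6B library and assumes that it varies like the shLuc libraries. With TMM factors from genes with a mean under 100 counts, the median of all genes moved from -0.01 to 0.08, the lower calls over all genes went from 2622 to 1592, and 71.6% of calls were higher, against 51.5%; CD74 (0.019), RFX5 (0.036), NFYB (0.018), B2M (0.040), BRD2 (0.051) and CD44 (0.013) changed sign, all without passing. Upper-quartile scaling turned RFXAP to -0.0023, leaving out the keratin libraries turned it to -0.012, and over single left-out libraries RFXAP ran from -0.065 to 0.072 and B2M from -0.098 to 0.025; the cause was not tested. By the DESeq2 Wald test 3421 genes passed, 1590 of them lower, against 5405. At an adjusted p under 0.01 by edgeR 3888 genes passed, 1853 of them lower, and 23 of the pathway genes. Leaving out each library gave 4533 to 5030 genes, 2211 to 2536 of them lower, and 23 to 32 of the pathway genes. Of the 30 pathway genes past the threshold, 16 passed in every refit, 7 were lost with TMM factors from genes under 100 counts and 10 by DESeq2. Replicate numbers are shared by the arms, and the labels do not say whether same-numbered libraries were paired. Same-numbered libraries deviated together by correlations of 0.116, -0.0767 and 0.152, and differently numbered ones by -0.179 to 0.066. Whether the numbers mark a shared batch was not tested. With the replicate block 6218 genes passed, against 5405, with 3052 lower. Among them were 37 of the pathway genes and 8 of the 10, all 8 lower, where 22.1% of all tested genes were lower. RFXANK, HLA-B, HLA-C and CD44 also passed with the block, lower (edgeR adjusted p 0.0438, 0.0234, 0.0133 and 0.0419). Depth limits the scarce chains most: HLA-DRB5, HLA-DPB1 and HLA-DOB had under 40 counts in every library.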
